A study of Arabidopsis thaliana with 4 samples.

Results

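The JAZ genes of Arabidopsis thaliana encode repressors of jasmonate responses, and the 10 loci from JAZ1 to JAZ10 are described here out of 33558 loci in the deposited expression table. The members were matched by locus identifier, a rule that uses no measured value, although the family was picked for description with earlier results of these data known. All 10 were found in the table. JAZ proteins bind and silence MYC2 and related transcription factors, together with the adaptor NINJA and the co-repressor TPL. When the active hormone, the isoleucine conjugate of jasmonate, accumulates, it joins JAZ proteins to the F-box receptor COI1, the JAZ proteins are degraded in the proteasome, and the transcription factors are released. Many JAZ genes are themselves targets of MYC2, so that jasmonate signalling renews its own repressors, and shade from neighbouring plants, sensed as far-red light in excess of red (low R:FR), is known to weaken jasmonate defences in this species.

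Total RNA was sequenced from samples labelled as shoots of 7-day-old seedlings in 4 groups. These were seedlings labelled hfr1-4pil1-2, a line carrying mutations in the shade-induced bHLH genes HFR1 and PIL1 (called hfr1 pil1 below), given 3 d of white light and then 96 h of low R:FR, the accession Col-0 given the same light, hfr1 pil1 kept in white light for 7 d, and Col-0 kept in white light for 7 d. All were raised at 22 °C on agar with no sucrose. The white light was continuous, between 30 and 50 µE in strength, with an R:FR of 1.2. Under low R:FR the lamps gave 13 µE of red, 1.23 µE of blue and 20 µE of far-red, so the amount of light changed together with its R:FR and their parts cannot be told apart. The mutant line is 1 allele combination, and nothing in the labels says how many seedlings a library pooled.

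The labels list 4 samples, 1 per group. The Col-0 columns are means, and their values resolved into whole reads of 2 libraries each, while each hfr1 pil1 column held 1 library, giving 6 libraries of 7358583 to 14684713 reads. The tests took the spread between the Col-0 libraries and assumed that a lone hfr1 pil1 library varies like them. Nothing says that the libraries came from separate plants, so the p-values measure only the spread between these libraries, which may be technical. HFR1 stood at 2112 normalized counts in hfr1 pil1 low R:FR and 189 in hfr1 pil1 white light, and PIL1 at 1574 and 220 in the same libraries, against 2046 and 2359 (HFR1) and 241 and 313 (PIL1) in the Col-0 low R:FR libraries. The labels of the mutant are therefore not checked by these transcripts. None of 5 shoot markers was at 0 in any group, but they moved with the light. Their deposited values summed to 149956 normalized counts in hfr1 pil1 low R:FR and 156008 in Col-0 low R:FR, against 301573 in hfr1 pil1 white light and 309954 in Col-0 white light. In Col-0 the log2 ratio of deposited values was -1.64 for CA1, -1.10 for RBCS1A, -0.79 for RCA and -0.13 for LHCB1.1, none of which could be tested, and GLK1 fell (-0.44 ± 0.076 SE, edgeR adjusted p = 0.000297). The part of this shift in the JAZ responses to light below was not tested. None of 10 root markers was at 0 in any group, and their summed level was 4263 normalized counts in hfr1 pil1 low R:FR, 3897 and 4257 in the Col-0 low R:FR libraries, 2642 in hfr1 pil1 white light, and 3663 and 4353 in the Col-0 white light libraries, so all samples held transcripts of root genes.

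The upstream sequences of the members show what they share outside the measurements. The 250 bases before each gene's start were read from the RefSeq copy of assembly TAIR10.1, whose nuclear chromosomes are those of the TAIR10 build named in the submitters' processing notes, and were searched on both strands for CACGTG, the G-box bound by MYC2 and by phytochrome-interacting factors, for CACATG, a variant of it, and for AACGTG, another variant bound by MYC2. At least 1 of these 3 motifs stood in 8 of 10 members, while 22.8% of 27443 windows of protein-coding genes held one. CACGTG stood in 4 members (6.49% of all windows), CACATG in 2 (11.1%) and AACGTG in 3 (7.54%), and no match overlapped another. A window with no match says nothing about sites elsewhere, and a match is a run of letters and not a shown binding site. Printed in full are the windows of the member with the largest rise in Col-0 among those called below (JAZ6) and of the member with the lowest value of hfr1 pil1 against Col-0 in low R:FR (JAZ10). They lie at chr1:27276563-27276812 (minus strand) and chr5:4218536-4218785 (plus strand), and capitals mark the motifs, AACGTG in JAZ6 and CATGTG, the reverse complement of CACATG, in JAZ10.
JAZ6: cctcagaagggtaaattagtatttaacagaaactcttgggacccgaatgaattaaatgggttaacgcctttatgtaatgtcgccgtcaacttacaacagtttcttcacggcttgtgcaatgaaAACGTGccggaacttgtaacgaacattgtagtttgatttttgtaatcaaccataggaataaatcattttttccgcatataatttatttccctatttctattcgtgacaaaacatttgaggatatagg
JAZ10: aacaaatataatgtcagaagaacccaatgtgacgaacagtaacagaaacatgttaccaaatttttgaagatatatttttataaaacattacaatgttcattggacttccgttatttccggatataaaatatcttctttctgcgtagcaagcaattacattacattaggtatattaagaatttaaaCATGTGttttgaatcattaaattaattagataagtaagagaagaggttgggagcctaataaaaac

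The remaining matches are shown with 10 bases before the motif and up to 10 after it, to compare their settings. The first base of the motif lay 66 bases before the gene start in JAZ2 (chr1:28150497-28150522, minus strand), 140 and 82 bases before it in JAZ3 (chr3:6119557-6119582 and chr3:6119615-6119640, plus strand), 34 in JAZ7 (chr2:14572986-14573011, plus strand), 10 in JAZ8 (chr1:10596332-10596351, plus strand) and 19 in JAZ9 (chr1:26654500-26654525, plus strand). JAZ3 had a further match 155 bases before the start, CACGTT, the reverse complement of AACGTG (chr3:6119542-6119567, plus strand), and the AACGTG of JAZ5 lay 218 bases before its start (chr1:5957714-5957739, minus strand).
JAZ2: taaattaaaaCACGTGttttaaatgt
JAZ3, farthest: gtgaatcattCACGTTaaaatagcgc
JAZ3, middle: taaaatagcgCACGTGcctcgccacg
JAZ3, nearest: cacgacgatgCACGTGcctttttaac
JAZ5: gcgtaaggaaAACGTGcggtaaattc
JAZ7: aagcattttaCACGTGcgtgaagaga
JAZ8: aaacattttcCACGTGagag
JAZ9: acacattttaCATGTGtgtgtgagtt
In JAZ7, JAZ8 and JAZ9 the motif followed the letters CATTTT and 1 further base. The run of CATTTT, any 1 base and CANGTG, spelled out after these windows had been read, stood on either strand in 3 of 10 members and in 14 of 27443 windows (0.051%). JAZ7 and JAZ8 are the 2 members with the lowest normalized counts and JAZ9 was the member with the highest level per length, so the shared run did not go with a shared level.

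The members differed widely in level. Per kilobase of exon JAZ9 came first in all 4 groups, at 211 normalized counts per kb in hfr1 pil1 low R:FR, 250 in Col-0 low R:FR, 289 in hfr1 pil1 white light and 370 in Col-0 white light. JAZ9 belongs to the same branch of the family as JAZ3 and JAZ4, and it is known to bind the DELLA protein RGA. JAZ6, JAZ2 and JAZ1 followed in every group, between 81.1 and 226 per kb, then JAZ3 between 41.2 and 59.3, and JAZ4, JAZ10, JAZ5 and JAZ7 stood at 29.8 per kb or less. In the Col-0 low R:FR libraries JAZ9 (238 and 262 per kb) and JAZ6 (250 and 201 per kb) overlapped, and JAZ2 (180 and 165 per kb) stood just above JAZ1 (162 and 145 per kb). In Col-0 white light JAZ9 (374 and 366 per kb) stood clear of JAZ2 (142 and 139 per kb) and JAZ6 (135 and 135 per kb), so the distance between the first member and the next was far smaller in low R:FR.

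The 10 transcripts summed to 803 normalized counts per kb in hfr1 pil1 low R:FR and 963 and 887 in the Col-0 low R:FR libraries, against 743 in hfr1 pil1 white light and 859 and 859 in the Col-0 white light libraries. The make-up of this pool differed more than its size. JAZ9 made up 26.3% of it in hfr1 pil1 low R:FR and 24.7% and 29.6% in Col-0 low R:FR, against 38.8% in hfr1 pil1 white light and 43.5% and 42.6% in Col-0 white light. JAZ6 made up 23.9% in hfr1 pil1 low R:FR and 26.0% and 22.7% in Col-0 low R:FR, against 16.4% in hfr1 pil1 white light and 15.7% in both Col-0 white light libraries. JAZ1, like JAZ6, had the larger share in low R:FR, with 17.5% in hfr1 pil1 low R:FR and 16.8% and 16.4% in Col-0 low R:FR, against 10.9% in hfr1 pil1 white light and 12.7% and 12.4% in Col-0 white light. In bulk samples such as these, a lower number of cells of one type and less RNA per cell cannot be told apart.

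**Figure D1:**
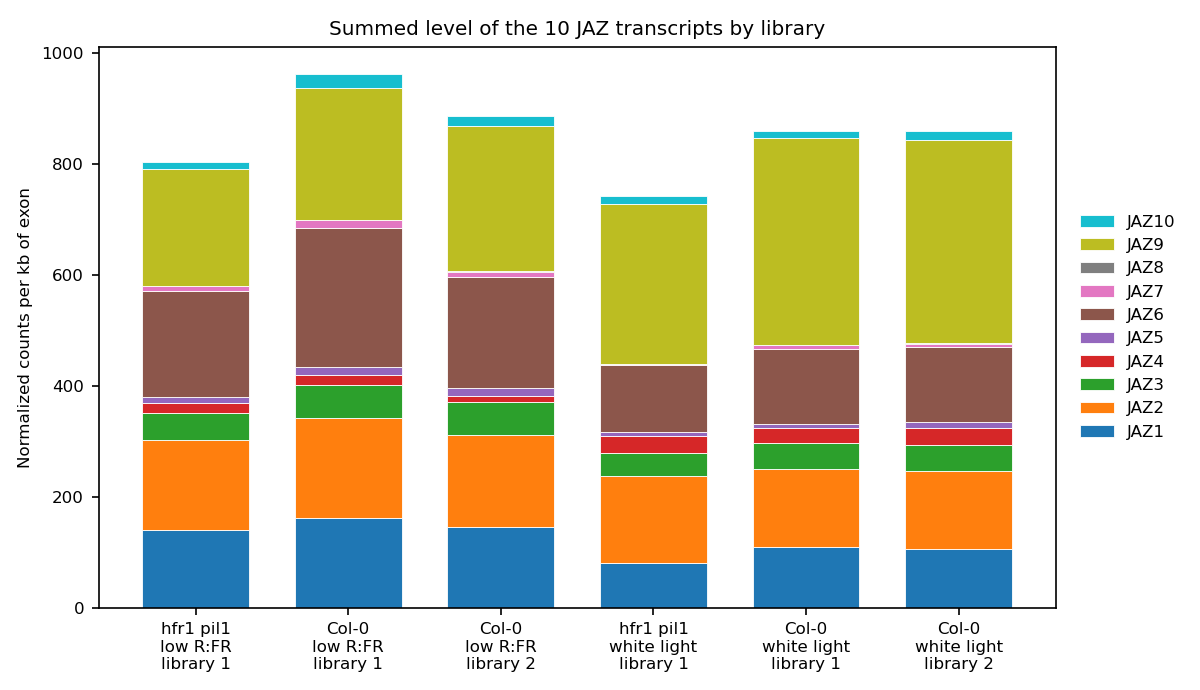
Stacked levels of the 10 JAZ transcripts in each of the 6 libraries, as normalized counts per kilobase of exon (linear axis from 0). The JAZ9 band is narrower and the JAZ6 and JAZ1 bands are wider in the 3 low R:FR libraries (left) than in the 3 white light libraries (right), while the bar heights lie between 743 and 963.

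In Col-0, 5 JAZ transcripts rose and 2 fell between white light and 96 h under low R:FR, and no fitted change reached 2-fold. JAZ6, JAZ1, JAZ10, JAZ3 and JAZ2 rose by 0.75 to 0.30 on the log2 scale, and JAZ4 and JAZ9 fell by 0.85 and 0.57. The counts are of 8 members tested, as JAZ7 and JAZ8 stayed under the mean of 10.8 normalized counts needed to enter the test. A rise or fall here is a Benjamini-Hochberg adjusted p under 0.05 in edgeR's quasi-likelihood test over 20010 genes, and fold changes are edgeR's fitted log2 values with an approximate SE. Of all genes tested 23.0% rose and 25.3% fell, so 2 of 8 lower is the background share, and the median fitted change was 0.42 over the 8 members against -0.023 over all genes. By the log2 ratio of deposited values, 0 of the 8 members were 2-fold higher or lower, while 4.79% and 2.79% of all genes were (7.58% in either direction).

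JAZ1, JAZ2, JAZ5 and JAZ6 form the branch of the family that includes the best-studied repressors. JAZ6 (AT1G72450, chr1:27273968-27276562, minus strand) had 532 and 428 normalized counts in the Col-0 low R:FR libraries, against 288 and 286 in the Col-0 white light libraries (0.75 ± 0.11 SE, edgeR adjusted p = 6.37e-05). Both low R:FR libraries stood above both white light libraries, which lay nearly on each other. JAZ1 (AT1G19180, chr1:6621777-6623668, plus strand), among the first repressors shown to be targets of COI1, had 292 and 262 normalized counts in Col-0 low R:FR, against 197 and 193 in Col-0 white light (0.51 ± 0.098 SE, edgeR adjusted p = 0.000818). These groups did not overlap either. JAZ2 (AT1G74950, chr1:28148574-28150446, minus strand), which acts in guard cells, had 247 and 227 in Col-0 low R:FR, against 195 and 192 in Col-0 white light (0.30 ± 0.098 SE, edgeR adjusted p = 0.0221). JAZ5 (AT1G17380, chr1:5955155-5957511, minus strand) had 31.3 and 32.1 in Col-0 low R:FR, against 16.7 and 27.6 in Col-0 white light (0.58 ± 0.28 SE, edgeR adjusted p = 0.105). Its white light libraries lay far apart, on 21 and 23 reads, and the test did not call it, although the low R:FR libraries were both higher.

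JAZ3, JAZ4 and JAZ9 did not move together although they are close relatives. JAZ9 (AT1G70700, chr1:26654529-26657350, plus strand) had 441 and 486 normalized counts in Col-0 low R:FR, against 693 and 678 in Col-0 white light (-0.57 ± 0.076 SE, edgeR adjusted p = 4.14e-05). Every low R:FR library, mutant included, stood below every white light library. JAZ4 (AT1G48500, chr1:17931390-17934662, plus strand), known as a repressor of cold responses and leaf senescence, had 36.2 and 21.2 in Col-0 low R:FR, against 51.6 and 55.1 in Col-0 white light (-0.85 ± 0.25 SE, edgeR adjusted p = 0.0118). The fall of JAZ4 rests in part on the second low R:FR library, which held 27 reads of it. JAZ3 (AT3G17860, chr3:6119707-6123044, plus strand), the repressor whose dominant mutant form is jai3-1, had 162 and 164 in Col-0 low R:FR, against 126 and 133 in Col-0 white light (0.33 ± 0.11 SE, edgeR adjusted p = 0.026). So within this branch JAZ3 rose while JAZ4 and JAZ9 fell.

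JAZ10 (AT5G13220, chr5:4218786-4221077, plus strand) makes splice forms that resist degradation, and it is the member known to be needed for the weaker defence of shaded plants. It had 57.1 and 40.7 normalized counts in Col-0 low R:FR, against 27.8 and 33.6 in Col-0 white light (0.72 ± 0.24 SE, edgeR adjusted p = 0.0255). The groups did not overlap, but the 2 low R:FR libraries were the most uneven of those of the called members that rose. RefSeq lists 7 transcript models for JAZ10, which a count per gene cannot tell apart, and 71 of its exonic bases overlap AT5G02045 on the other strand. JAZ7 (AT2G34600, chr2:14573030-14573952, plus strand) and JAZ8 (AT1G30135, chr1:10596352-10597341, plus strand) carry a motif that binds the co-repressor directly, and JAZ8 resists hormone-induced degradation. JAZ7 had 19 and 9 reads in Col-0 low R:FR, against 7 and 3 reads in Col-0 white light, or 11.7 and 7.05 against 5.56 and 3.6 normalized counts. JAZ8 had 1 read in each Col-0 low R:FR library, against 0 and 2 reads in Col-0 white light, too few for any comparison. With no filter on low counts, JAZ7 was fitted at 0.99 ± 0.60 SE (edgeR adjusted p = 0.188), so a change of JAZ7 was not detectable at this depth.

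Of the 8 members tested in Col-0, 6 lay higher in both low R:FR libraries and 2 lay lower in both, where 35.6% and 38.9% of all genes tested did. The rises of JAZ6 and JAZ1 and the fall of JAZ9 were called with every single Col-0 library left out, whereas JAZ10 (adjusted p = 0.279) and JAZ2 (0.154) were not called without the first low R:FR library, JAZ10 (0.169), JAZ3 (0.161) and JAZ2 (0.0721) without the first white light library, JAZ2 (0.054) without the second white light library, and JAZ4 (0.0972) and JAZ3 (0.0831) without the second low R:FR library (edgeR). Without the first low R:FR library JAZ10 was fitted at 0.43 and JAZ4 at -1.32, and without the second JAZ4 was fitted at -0.55. JAZ3 was also lost without the first low R:FR library (0.0808), and JAZ5 was fitted at 0.20 (edgeR adjusted p = 0.681) without the first white light library and at 0.92 (edgeR adjusted p = 0.03) without the second. DESeq2, which called 23.9% of all genes against 48.2% for edgeR, called only JAZ6 and JAZ9 with the same size factors.

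**Figure D2:**
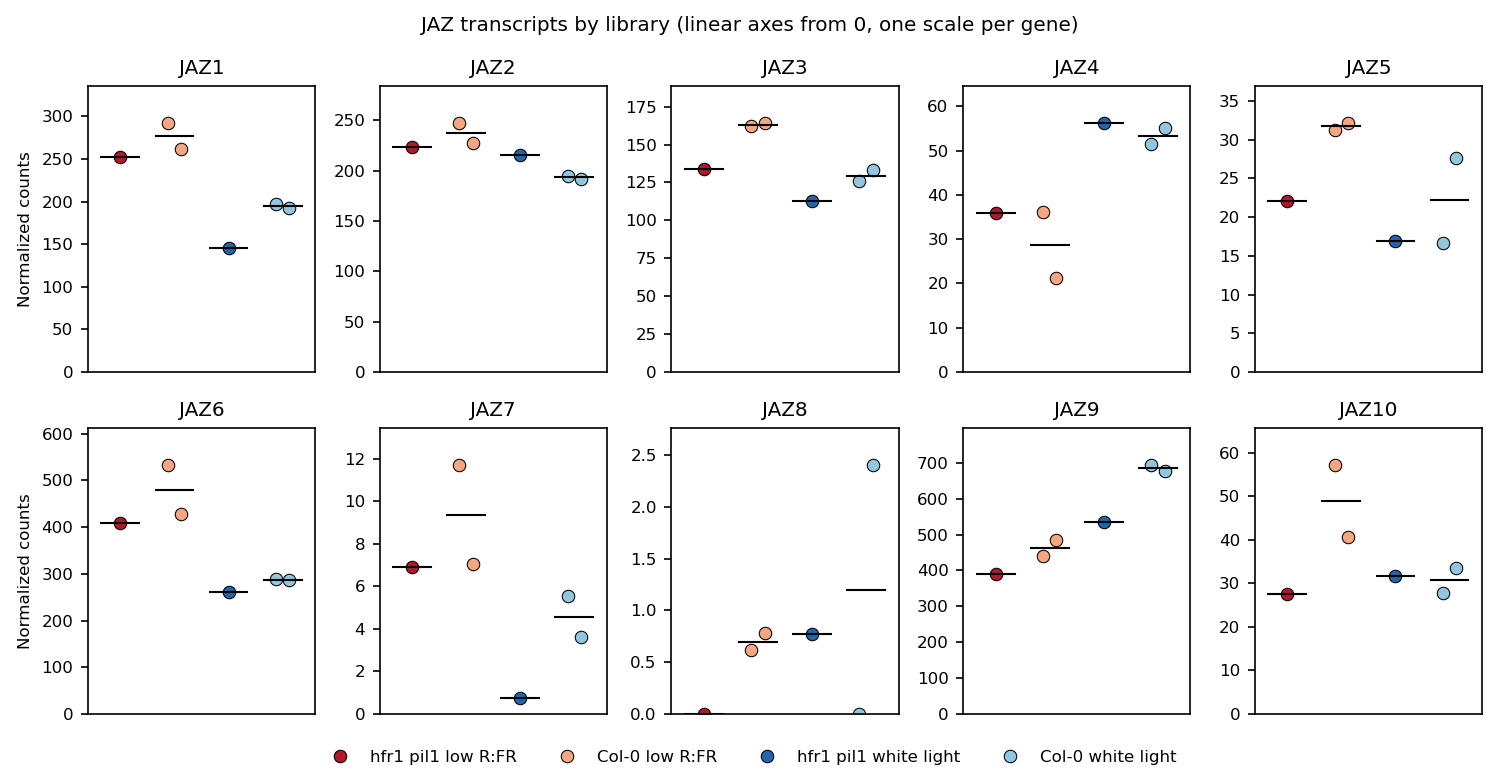
Normalized counts of each JAZ transcript in the 6 libraries (linear axes from 0 with a scale for each gene), with points for libraries and bars for group means. JAZ1 and JAZ6 lie higher and JAZ9 and JAZ4 lie lower in the low R:FR libraries (the 2 left groups of each panel) than in the white light libraries, and JAZ8 rests on at most 2 reads in any library.

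Genes of rapid wounding and touch, which can respond to handling of the plants, were also higher in Col-0 low R:FR. Of 8 tested genes of that list 6 rose and 0 fell in Col-0, where 23.0% of all genes rose and 25.3% fell. The median fitted change of the 8 genes was 1.05 in Col-0 and 0.53 in hfr1 pil1. Their summed level, over all 9 listed genes, was 1635 normalized counts in hfr1 pil1 low R:FR and 2399 and 3277 in the Col-0 low R:FR libraries. In white light it was 1146 in hfr1 pil1 and 1009 and 1127 in the Col-0 libraries. None of the 9 listed genes was at 0 in any group. TCH4, a touch-induced xyloglucan enzyme gene that also responds to growth hormones, had 861 and 418 normalized counts in Col-0 low R:FR, against 146 and 94.7 in Col-0 white light (2.38 ± 0.29 SE, edgeR adjusted p = 1.80e-05). Between the Col-0 low R:FR libraries, JAZ1, JAZ2, JAZ4, JAZ6, JAZ7 and JAZ10 were higher in the first. JAZ3 (162 against 164), JAZ5 (31.3 against 32.1) and JAZ9 (441 against 486) were lower in it, and JAZ8 had 1 read in each. Of the wound and touch list, TCH2, TCH3, TCH4, WRKY33, WRKY40 and CBF2 (11.1 against 11) were higher in the first library. ZAT10 (49.1 against 50.1), ZAT12 and ERF5 were lower in it. The part of handling in the JAZ values was not tested.

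In hfr1 pil1, 2 members rose and 1 fell of the 8 tested, beside 18.4% of all genes higher and 18.5% lower in the same comparison (36.9% in all). Again 0 members were 2-fold higher or lower, while 6.48% and 4.56% of all genes were (11.0% in either direction). Root markers moved with this response, with 9 of 10 higher and 1 lower by edgeR against 4 higher and 2 lower in Col-0, and their part in the JAZ values was not tested. JAZ1 had 253 normalized counts in low R:FR, against 146 in white light (0.79 ± 0.16 SE, edgeR adjusted p = 0.00157). JAZ6 had 408 in low R:FR, against 260 in white light (0.65 ± 0.16 SE, edgeR adjusted p = 0.0064). JAZ9 had 391 in low R:FR, against 535 in white light (-0.45 ± 0.12 SE, edgeR adjusted p = 0.00953). These are the members with the firmest calls in Col-0, and each moved the same way in both genotypes. The responses share no library, but both used the spread of the Col-0 libraries, so the calls are not independent. Members were called about as often as all genes (36.9%), and the share of all genes that moved the same way in both genotypes was not counted.

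The other members were not called in hfr1 pil1. JAZ2 had 223 normalized counts in low R:FR, against 216 in white light (0.045 ± 0.15 SE), and JAZ3 had 134 against 113 (0.24 ± 0.18 SE). JAZ4 had 35.9 in low R:FR, against 56.2 in white light (-0.64 ± 0.37 SE), close to its Col-0 value but on 26 and 73 reads. JAZ5 had 22.1 in low R:FR, against 16.9 in white light (0.38 ± 0.49 SE). JAZ10 had 27.6 in low R:FR, against 31.6 in white light (-0.19 ± 0.42 SE), the one tested member whose fitted value had the opposite sign in Col-0. Adjusted p for these 5 members lay between 0.202 and 0.84 (edgeR). JAZ7 had 5 reads in low R:FR, against 1 in white light (edgeR adjusted p = 0.109 with no filter), and JAZ8 had 0 reads, which allows up to 3, against 1 in white light. With 1 library on either side, the precision of this comparison is lower than in Col-0, and the median SE over the members was 0.17 against 0.11 there. DESeq2 with the same size factors called none of the 8 members in hfr1 pil1, with JAZ1 at an adjusted p of 0.0744, JAZ6 at 0.0866 and JAZ9 at 0.187, while 3 had an unadjusted p under 0.05.

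**Figure D3:**
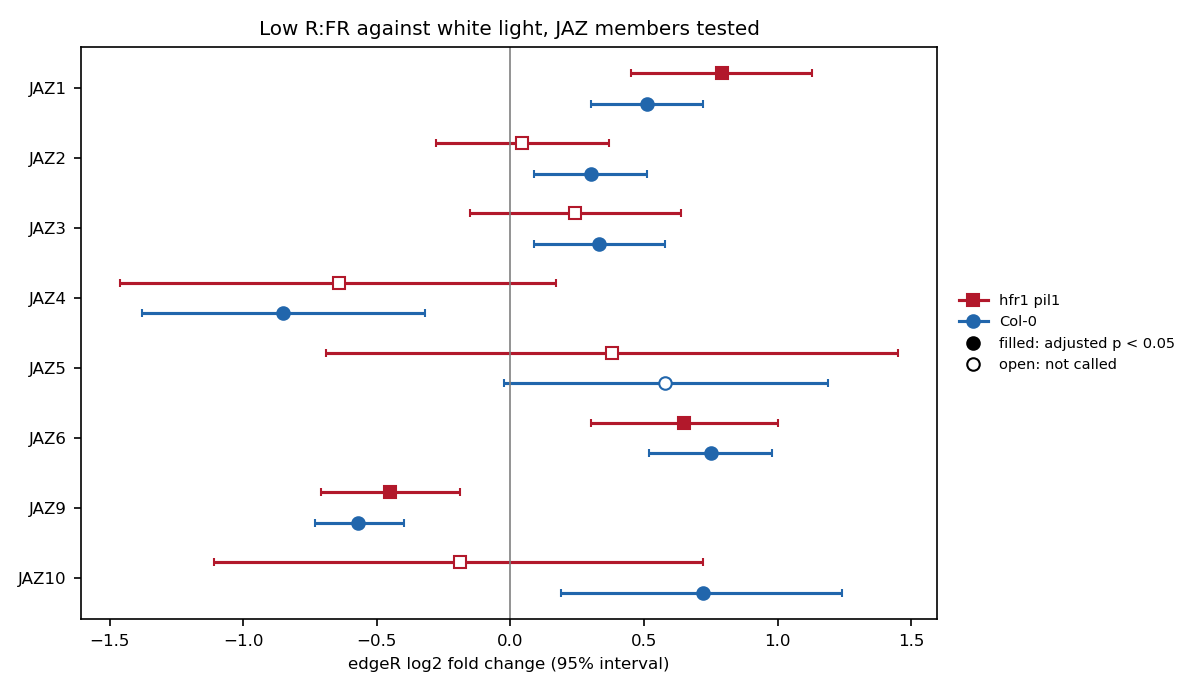
Fitted log2 fold change of low R:FR against white light for the 8 tested JAZ members, with hfr1 pil1 as squares above Col-0 as circles, 95% intervals as bars, and filled symbols for adjusted p under 0.05. JAZ1, JAZ6 and JAZ9 are filled in both genotypes, with JAZ9 on the negative side, and JAZ10 is the member whose 2 points lie on opposite sides of 0.

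The genotypes were then compared directly, which asks whether JAZ expression differed in the libraries labelled hfr1 pil1. No member was called in either light. In low R:FR the fitted values ran from -0.097 (JAZ2) to -0.84 (JAZ10) for JAZ1, JAZ2, JAZ3, JAZ5, JAZ6, JAZ9 and JAZ10. For JAZ4 the value was 0.29 ± 0.37 SE. All of these values rest on the same hfr1 pil1 library, so a sign shared by several members is not a separate result for each gene. JAZ10 showed the widest gap, at 27.6 normalized counts in hfr1 pil1, against 57.1 and 40.7 in Col-0 (-0.84 ± 0.35 SE, 95% interval -1.60 to -0.079, edgeR unadjusted p = 0.0331 and adjusted p = 0.308). JAZ10 in hfr1 pil1 low R:FR thus lay at the level of the white light libraries, on 20 reads. JAZ9 was the other member with an unadjusted p under 0.05 (0.0421, adjusted 0.341, edgeR), at 391 in hfr1 pil1, against 441 and 486 in Col-0. Over all genes 0.985% were higher and 1.39% lower in this comparison (2.37% in all), and 0.249% and 0.348% were 2-fold higher and lower (0.597% in all), where 0 members were. DESeq2 with the same size factors gave an adjusted p only for JAZ6 and JAZ9 and called neither, so the other tested members could not be called by it. It found 0 of the 8 members with an unadjusted p under 0.05.

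In white light JAZ9 had 535 normalized counts in hfr1 pil1, against 693 and 678 in Col-0 (-0.36 ± 0.093 SE, edgeR unadjusted p = 0.00206 and adjusted p = 0.0667). It stood below both Col-0 libraries in both lights, as did JAZ1, JAZ3 and JAZ6 among the tested members. The share of all genes that did so was not counted. JAZ9 was called in white light when no filter on low counts was set (edgeR adjusted p = 0.0132). That setting called 4.88% of all its genes in this comparison, in either direction. JAZ1 had 146 in hfr1 pil1 white light, against 197 and 193 in Col-0 white light (-0.42 ± 0.13 SE, edgeR unadjusted p = 0.00841 and adjusted p = 0.145). The other 6 tested members had an unadjusted p of 0.216 or more (edgeR), and their 95% intervals included 0. Over all genes 0.580% were higher and 1.89% lower (2.47% in all), and 0.0348% and 0.781% were 2-fold higher and lower (0.815% in all), where 0 members were. DESeq2 called 0 of the 8 members, with 0 at an unadjusted p under 0.05 with the same size factors and 1 with its own. With the same size factors it gave no adjusted p for JAZ5, which could not be called there. Root markers were lowest in the hfr1 pil1 white light library, with 5 of 10 lower and 1 higher than in Col-0 white light (edgeR), and their part in the lower JAZ1 and JAZ9 was not tested.

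The difference of the 2 responses, hfr1 pil1 minus Col-0, was called for none of the 8 members, and none had an unadjusted p under 0.05 by edgeR or by DESeq2, beside 1.98% of all genes higher and 1.82% lower by edgeR (3.81% in all). A 2-fold difference was reached by 0 members, and by 1.76% of all genes upward and 0.597% downward (2.35% in all). For JAZ10 it was -0.91 ± 0.48 SE (95% interval -1.95 to 0.14, edgeR adjusted p = 0.397). For the well-counted members the intervals were narrower, at -0.12 to 0.68 for JAZ1, -0.51 to 0.32 for JAZ6 and -0.19 to 0.42 for JAZ9, so that a 2-fold difference of response lies outside them. The intervals of JAZ4 (-0.79 to 1.19), JAZ5 (-1.43 to 1.03) and JAZ10 allow a 2-fold difference. A call in Col-0 that is missing in hfr1 pil1, as for JAZ2, JAZ3, JAZ4 and JAZ10, is therefore not shown to be a difference between the genotypes.

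**Figure D4:**
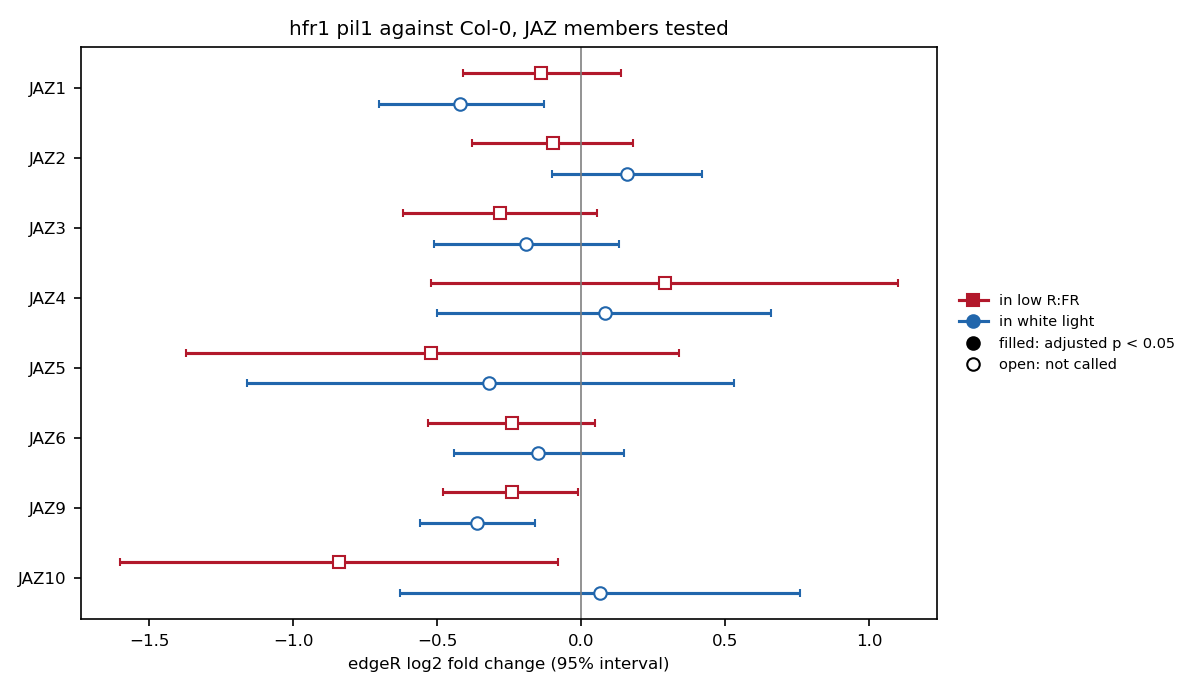
Fitted log2 fold change of hfr1 pil1 against Col-0 for the 8 tested JAZ members, in low R:FR (squares) and in white light (circles), with 95% intervals. All symbols are open because no adjusted p was under 0.05, and JAZ10 in low R:FR (-0.84) is the farthest from 0.

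The rest of the pathway gives the setting of these values. Of 8 other TIFY genes listed, all tested, 2 rose and 1 fell in Col-0, with a median of 0.075. Of all genes 23.0% rose and 25.3% fell. JAZ13 had been dropped because its symbol was not matched in RefSeq. PPD2, which limits leaf growth, had 208 and 226 normalized counts in Col-0 low R:FR, against 138 and 162 in Col-0 white light (0.54 ± 0.11 SE), TIFY8 stood at 0.34 ± 0.079 and ZIM fell by 0.32 ± 0.086 (SE, edgeR adjusted p between 0.00127 and 0.00794 for the 3 genes). JAZ11 and JAZ12, the remaining listed repressors of the family, were not called, at 0.11 ± 0.12 and 0.027 ± 0.076 (SE).

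Of 12 genes for the receptor, its partners, co-repressors and transcription factors, 4 rose and 1 fell in Col-0, beside 23.0% and 25.3% of all genes. The other 7 were not called, among them COI1, NINJA and TPL. MYC2, the chief transcription factor held by JAZ proteins, had 577 and 587 normalized counts in Col-0 low R:FR, against 451 and 494 in Col-0 white light (0.31 ± 0.076 SE, edgeR adjusted p = 0.00471). In hfr1 pil1 it had 683 in low R:FR, against 407 in white light (0.74 ± 0.11 SE, edgeR adjusted p = 0.000184). The difference of the responses was not called for MYC2 (0.44 ± 0.14 SE). JAV1, a repressor of jasmonate defences outside the JAZ family, rose in Col-0 (0.58 ± 0.19 SE), as did JAM2, a bHLH factor that opposes MYC2 (0.32 ± 0.12 SE), while MYC4 fell by 0.25 ± 0.092 (SE, edgeR adjusted p between 0.0225 and 0.0397 for the 3 genes).

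Of 16 tested synthesis genes, 5 fell, 2 rose and 9 were not called in Col-0, with a median of -0.057, where 25.3% of all genes fell. LOX3, a lipoxygenase of the first step, had 52.2 and 76.0 normalized counts in low R:FR, against 144 and 159 in white light (-1.26 ± 0.17 SE, edgeR adjusted p = 4.10e-05). AOS, which makes the allene oxide, fell by 0.66 ± 0.062 and AOC1, an allene oxide cyclase, by 0.76 ± 0.099 (SE), and AOC2 fell by 2.30 ± 0.086. LOX2, named here after its values were seen, could not be split into reads and was not tested, and its deposited value was 3304 in Col-0 low R:FR, against 18276 in Col-0 white light (log2 ratio -2.46). The AOC genes are close copies whose counts may be mixed. Of 7 turnover genes, 5 rose and 1 fell in Col-0, where 23.0% of all genes rose, and the lists were not compared by a test. JOX1, JOX2, JOX3 and JOX4 had been dropped from the turnover list because their symbols were not matched in RefSeq. ST2A rose the most, with 680 and 804 normalized counts in Col-0 low R:FR, against 46.1 and 39.6 in Col-0 white light (4.09 ± 0.13 SE, edgeR adjusted p = 1.35e-10). ILL6, an amidohydrolase that splits jasmonate conjugates, had 220 and 227 in Col-0 low R:FR, against 59.6 and 82.7 in Col-0 white light (1.69 ± 0.14 SE), and CYP94B1, which oxidizes the active conjugate, rose by 1.18 ± 0.11 (SE, edgeR adjusted p = 5.76e-07 and 2.12e-06). JMT, a jasmonate methyltransferase, fell to 4.3 and 3.92 in Col-0 low R:FR, against 102 and 94.7 in Col-0 white light (-4.55 ± 0.27 SE, edgeR adjusted p = 2.45e-08).

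Genes used as readouts of jasmonate went both ways in Col-0, with 3 higher, 3 lower and 2 not called of 8 tested out of 16 listed. Of all genes 23.0% were higher and 25.3% lower. TAT3, a tyrosine aminotransferase gene, had 110 and 128 normalized counts in Col-0 low R:FR, against 17.5 and 3.6 in Col-0 white light (3.31 ± 0.31 SE), and ANAC055, a target of MYC2, rose by 3.22 ± 0.30 (SE). CORI3 fell by 1.86 ± 0.11 and VSP2, a vegetative storage protein gene, by 0.99 ± 0.10 (SE, edgeR adjusted p between 2.22e-08 and 4.69e-06 for the 4 genes). In hfr1 pil1 against Col-0 in low R:FR, where no JAZ member was called, ST2A was higher (1.51 ± 0.096 SE), CYP94B1 was higher (0.56 ± 0.12 SE), VSP2 was lower (-0.81 ± 0.15 SE) and TAT3 was lower (-1.78 ± 0.36 SE, edgeR adjusted p between 2.97e-06 and 0.0303 for the 4 genes). TCH4, TCH3 and TCH2 of the touch list were lower too (-1.70, -0.81 and -0.51, edgeR adjusted p between 0.0284 and 0.0438). In white light hfr1 pil1 against Col-0 stood at -0.088 for ST2A, -1.24 for CYP94B1, -1.20 for VSP2 and -1.12 for TAT3. Of these, CYP94B1 and VSP2 were called. The difference of the responses was not called for VSP2 (0.39 ± 0.20 SE) or TAT3 (-0.65 ± 0.92 SE).

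**Figure D5:**
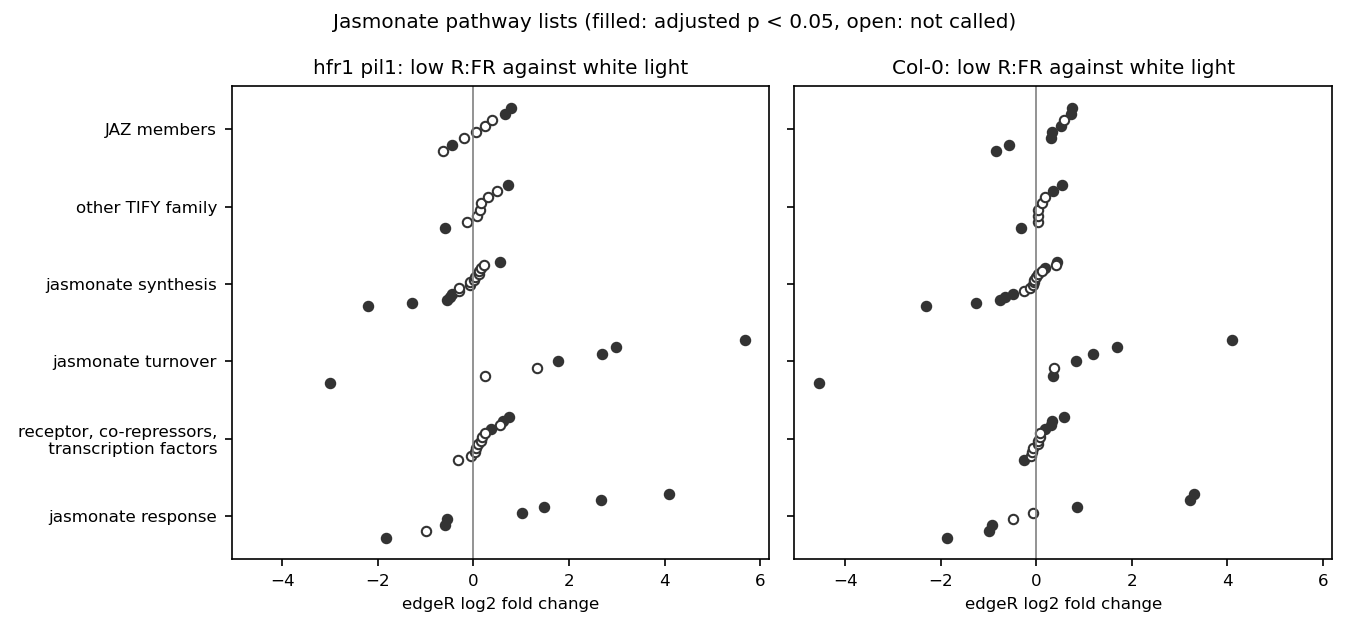
Fitted log2 fold change of low R:FR against white light for each tested gene of 6 jasmonate lists, in hfr1 pil1 (left) and Col-0 (right), with a point per gene and filled points for adjusted p under 0.05. The JAZ members lie between -0.85 and 0.79, a narrower range than that of the turnover list, which reaches 5.68 in hfr1 pil1 and -4.55 in Col-0.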

How the data were processed

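The authors deposited 1 table of a normalized signal for 33558 loci in 4 columns, in which each library's reads had been scaled by a single size factor. The submitters' processing notes name Bowtie and TAIR10. Versions, strandedness and the counting and normalization steps are not given in these sources. Both Col-0 columns hold averages, per the file headers. Within 0.01 reads, 100% of hfr1 pil1 values were whole multiples of 1 step, and 99.7% of Col-0 low R:FR and 99.8% of Col-0 white light values split into whole reads of 2 libraries. In all, 33457 loci were resolved in all 6 libraries.

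Loci averaging 10.8 normalized counts or more over the 4 columns (20111 loci, the cutoff being about 1 CPM) entered, and 10.8 was added before log2 ratios. The count test on recovered reads of 20010 loci used R 4.3.3 and edgeR 4.0.16 (quasi-likelihood, the authors' size factors). It had 2 residual and 10.7 prior degrees of freedom and a biological coefficient of variation of 0.0525. The test was also run on simulated data that gave all libraries the same spread, which cannot check how a lone hfr1 pil1 library varies. On the recovered reads it called 9654 genes in the Col-0 response. The SE was taken from the fold change and its F statistic (size over root F), and 95% intervals use it. Alternatives were DESeq2 1.42.0, TMM, filters, pseudocounts, rescaling and left-out libraries. Intervals and floors cover counting error only where they rest on reads alone. Both the log2 ratios of deposited values and the count test on recovered reads were planned.

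The members, matched by locus identifier, and the lists were chosen with earlier results of these data known. All members are named, and up to 4 called genes per list with the largest fold change. Of 104 list entries 6 were dropped because RefSeq does not carry their symbol (JAZ13, JOX1, JOX2, JOX3, JOX4 and MYC5). RefSeq names JAZ9 TIFY7. No member shares a stretch of 30 bases with another gene's transcript except JAZ10, with its antisense neighbour. Protein sequences were not used here, and 1 upstream sequence is not reported here. A 1 h treatment was not analysed here.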

Additional observations from a re-analysis of the deposited data

Results flagged for a closer look

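No JAZ member was among the results whose responses differed between genotypes. Of the other genes named, 7 were, each by the test of the difference itself (hfr1 pil1 response minus Col-0 response, edgeR, Benjamini-Hochberg adjusted p). The jasmonate turnover genes ST2A (1.60 ± 0.27 SE, adjusted p = 0.00691) and CYP94B1 (1.80 ± 0.23 SE, adjusted p = 0.00153) rose more in hfr1 pil1, by 5.68 and 2.98, than in Col-0, by 4.09 and 1.18. HFR1 (-2.87 ± 0.23 SE, adjusted p = 6.72e-05) and PIL1 (-1.28 ± 0.32 SE, adjusted p = 0.0451) rose less in hfr1 pil1, from higher levels in white light. There HFR1 had 189 normalized counts in hfr1 pil1, against 22.2 and 33.6 in Col-0. PIL1 had 220 in hfr1 pil1 white light, against 12.7 and 20.4 in Col-0 white light. In low R:FR the fitted value of hfr1 pil1 against Col-0 was -0.059 for HFR1 and 2.52 for PIL1. The root marker MRN1 (2.94 ± 0.35 SE, adjusted p = 0.00129) rose in hfr1 pil1 and fell in Col-0, and the root marker IRT1 differed by -1.28 ± 0.21 SE (adjusted p = 0.00585). The touch gene TCH2 differed by -0.72 ± 0.17 SE (adjusted p = 0.0353).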

How the results depend on the processing

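TMM normalization changed none of the 10 member calls. In the Col-0 response DESeq2 called 1 member higher and 1 lower with the authors' size factors, and 2 higher and 1 lower with its own, against 5 and 2 by edgeR. In hfr1 pil1 it called 0 higher and 0 lower with the authors' factors, and 1 higher and 0 lower with its own, against 2 and 1. Leaving out each Col-0 library in turn gave 2 to 5 members higher and 1 to 2 lower in Col-0. With no filter on low counts, 1 member (JAZ9) was lower in hfr1 pil1 white light, against 0 with it. Of all genes 4.88% were called in that comparison without the filter, against 2.47% with it. No called member reversed under any alternative, and no pseudocount, rescaling or filter put a member at 2-fold. Rescaling columns to 1 total moved the median of all genes by 0.13 in the hfr1 pil1 response, so a change under that size has no firm sign. No paired analysis was possible because the labels give no replicate numbers and each hfr1 pil1 group has 1 library. Depth limits JAZ7 and JAZ8.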
